A study of Homo sapiens with 60 samples.

Results

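The 31 genes described here make or control the sterols and fatty acids that the SREBP transcription factors govern. They were chosen by symbol, as 7 enzymes that build farnesyl diphosphate from acetyl-CoA (the mevalonate arm), 11 enzymes that turn it into cholesterol, 7 enzymes of fatty acid synthesis and desaturation, and 6 genes of SREBP control and sterol transport. All 31 were found among the 57665 genes of the deposited tables, and all 31 were abundant enough to be tested, as were 18040 genes in all. The 18 enzymes of the first 2 groups are called the sterol arm below.

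The cells were U2OS, an established human osteosarcoma line, of the derivative labelled Dmr-PERK, with the genotype given as WT. PERK phosphorylates eIF2 alpha, which lowers protein synthesis while ATF4 is made, the core of the integrated stress response. The engineered protein, stably expressed, joins the kinase domain of mouse PERK to a DmrB domain that pairs on binding the ligand AP20187, the dimerizer, and the kinase becomes active on pairing. The dimerizer was given at a low dose of 0.01 nM, a middle dose that the design text rounds to 0.2 nM, as is done here (the labels and figures give the unrounded value), and a high dose of 3 nM. Times were 1, 2, 4, 8, 16 and 24 h, with 3 libraries of total RNA for each of the 18 combinations. Untreated cells of the same line, labelled 0 h, gave 2 sets of 3 libraries. Every group, control included, carried the construct and grew in medium with serum. The labels do not say whether the line is 1 clone or whether the triplicates were separate cultures, so p-values measure the spread between these libraries, which may be technical. Untreated cells collected beside each time point, or given vehicle, were not analysed here. In every comparison with untreated, the dimerizer, its vehicle and the hours in culture therefore cannot be told apart.

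SREBPs are made as precursors in the membrane of the endoplasmic reticulum, where SCAP holds them and senses cholesterol. When sterols are scarce SCAP carries SREBP to the Golgi, proteases release its active part, and transcription of the synthesis genes rises. When sterols are plentiful the INSIG proteins keep SCAP and SREBP in place, and INSIG1 is itself a sensitive SREBP target. SREBP2, from SREBF2, acts mainly on cholesterol genes and SREBP1, from SREBF1, mainly on fatty acid genes.

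Total counts were 5598803 to 10367667 in the 39 libraries of untreated set 1, 0.01 nM and 0.2 nM, and 20713981 to 28436445 in the 21 libraries of untreated set 2 and 3 nM. The depth and the 3 nM dose therefore go together, and untreated set 1 stood apart in its share of counts from mitochondrial genes, at 10% to 11.3%. That share was 5.42% to 5.57% in set 2, 5.53% to 6.79% at 0.01 nM, 4.76% to 5.8% at 0.2 nM and 4.16% to 5.22% at 3 nM, and its part in the results was not tested. Among the deeper libraries 2 stood apart from their own group. By a chi-square statistic per degree of freedom over genes, replicate 1 at 3 nM and 4 h differed from its partners by 18.5 and 19.2, and replicate 3 at 3 nM and 2 h by 6.88 and 8.01, against 1.38 to 2.98 in the other 56 pairs of replicates. Counts that rest on these 2 groups are given with and without those libraries. Fold changes below are log2 values from the edgeR fit on counts, against the mean of both untreated sets unless another control is named, and a gene is called at an adjusted p under 0.05. Levels are TPM, a length-corrected abundance on which the median gene stood 0.06 to 0.18 log2 above untreated in the 18 treated groups, so a small fall on the count scale can vanish in TPM. Targets of the response were high: at 3 nM and 24 h ASNS, an asparagine-making enzyme, was higher by 3.16, TRIB3, a pseudokinase induced by the response, by 4.49 and ATF4 by 1.16. Of 6 mesenchymal and bone markers 5 had a median of at least 1 TPM, and the 5 hepatocyte and adipocyte markers summed to at most 0.911 TPM in any library. Of 4 epithelial markers 3 had a median of at least 1 TPM. Their sum was 182 to 300 TPM in untreated cells and 101 to 325 TPM at 3 nM. The mesenchymal sum was 4843 to 5329 TPM in untreated cells and 1576 to 4724 TPM at 3 nM, and its part in the results was not tested. RNA was taken from whole wells, so a lower level in every cell and a change in some cells cannot be told apart.

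The untreated sets already differed in these genes. Set 2 was higher than set 1 for 16 of the 31 members, where 14.9% of all tested genes were called higher. The largest such differences were 0.42 for STARD4, 0.40 for SC5D, 0.35 for INSIG1 and 0.34 for HMGCS1. Set 2 shares its depth with the 3 nM libraries and set 1 with the others, and the labels tie neither set to a dose. Where the set of like depth alone ends the call of a described value at 4 or 24 h, or moves the value by over 1.5 times, its own value is given too.

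After 24 h most of these genes were lower at every dose. At 0.01 nM 27 of 31 members were called lower (22.2% of all tested genes were), at 0.2 nM 28 (31.2%), and at 3 nM 27 (36%). The only member called higher at 3 nM was ELOVL6, where 41.1% of all tested genes were called higher. The median member stood at -0.365, -0.932 and -1.06 at the 3 doses, and the median tested gene at 0.0145, 0.0377 and 0.0533. On the TPM scale all 3 treated libraries lay below all 6 untreated libraries for 11 members at 0.01 nM and for 23 members at each higher dose. Against the set of like depth alone, 23, 26 and 27 members were called lower. On the TPM scale limma called 17 lower at 0.01 nM, where the median tested gene stood at 0.14. The shares of all tested genes above are from the main fit, and those of these alternatives are not given.

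**Figure D1:**
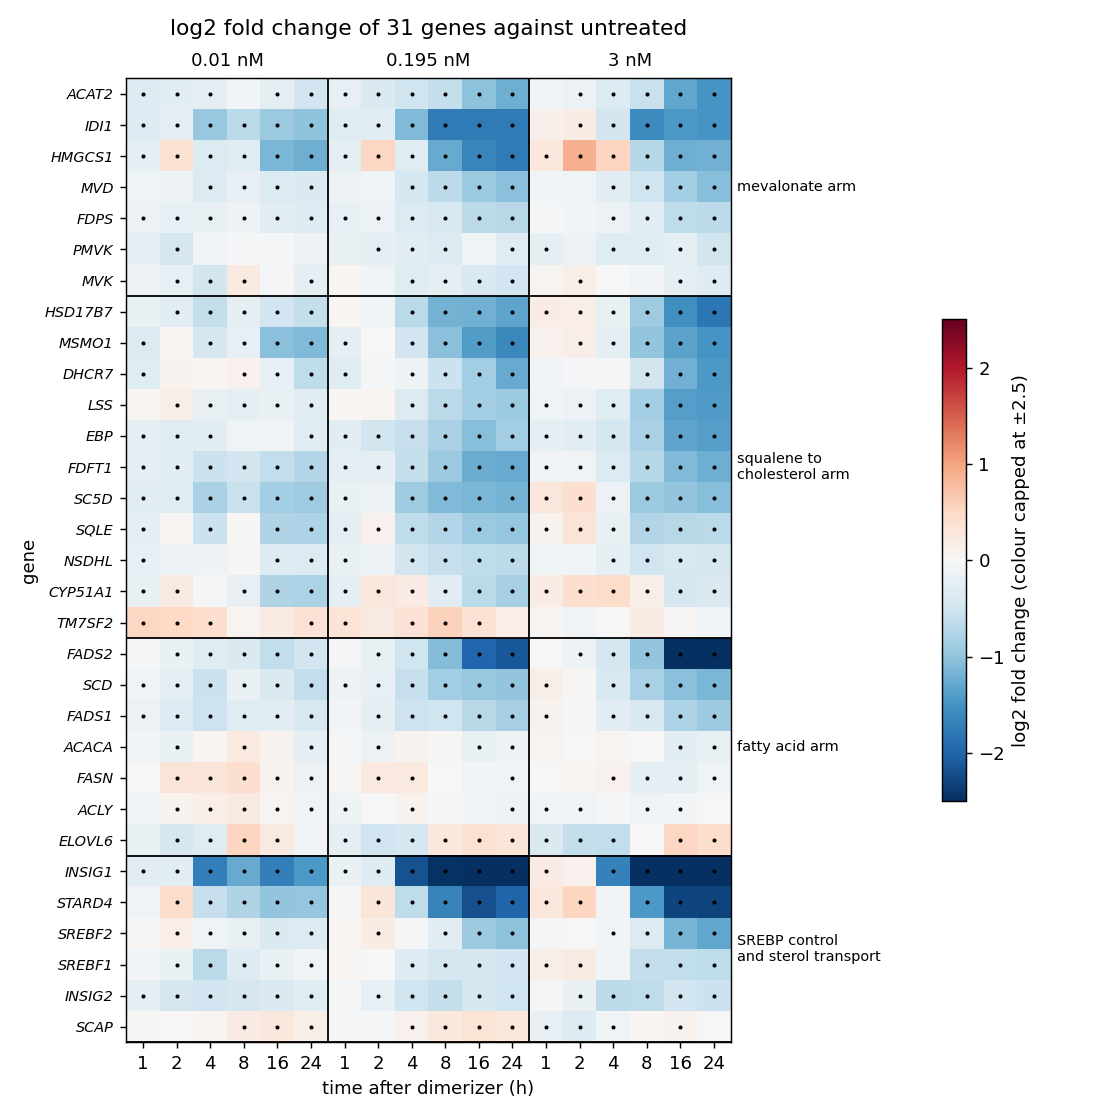
Colour shows the log2 fold change against untreated for each of the 31 genes (rows, by arm) at each dose and time (columns), with dots marking genes called at an adjusted p under 0.05. Blue deepens from 8 h on at 0.2 and 3 nM through both sterol groups, while 4 of the 7 fatty acid genes stay pale or turn red.

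The medians of the 2 arms of lipid synthesis parted, more so at the upper doses. The median of the 18 sterol enzymes after 24 h was -0.539, -1.0 and -1.13 at the low, middle and high dose, and that of the 7 fatty acid enzymes was -0.234, -0.134 and -0.181. In TPM the medians were -0.372, -0.953 and -1.10 for the sterol enzymes and -0.246, -0.250 and -0.326 for the fatty acid enzymes. Of the sterol enzymes 16, 17 and 17 were called lower at the 3 doses, and of the fatty acid enzymes 6, 6 and 5. The last counts include ACLY, ACACA and FASN, whose small values depend on the scale or the untreated set, as given below. Sizes differed within the arms: the fatty acid enzymes ranged from -3.25 to 0.45 at 3 nM, and the sterol enzymes from -1.80 to -0.07. The 3 desaturases FADS2, SCD and FADS1 held the lowest fatty acid values there. The split of medians therefore does not describe every enzyme of that arm. With the control genes added to each arm (SREBF1 to the fatty acid arm, the other 5 to the sterol arm), the medians at 3 nM were -1.20 and -0.41. The arms share regulators and libraries, so their medians are set side by side with no test.

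**Figure D2:**
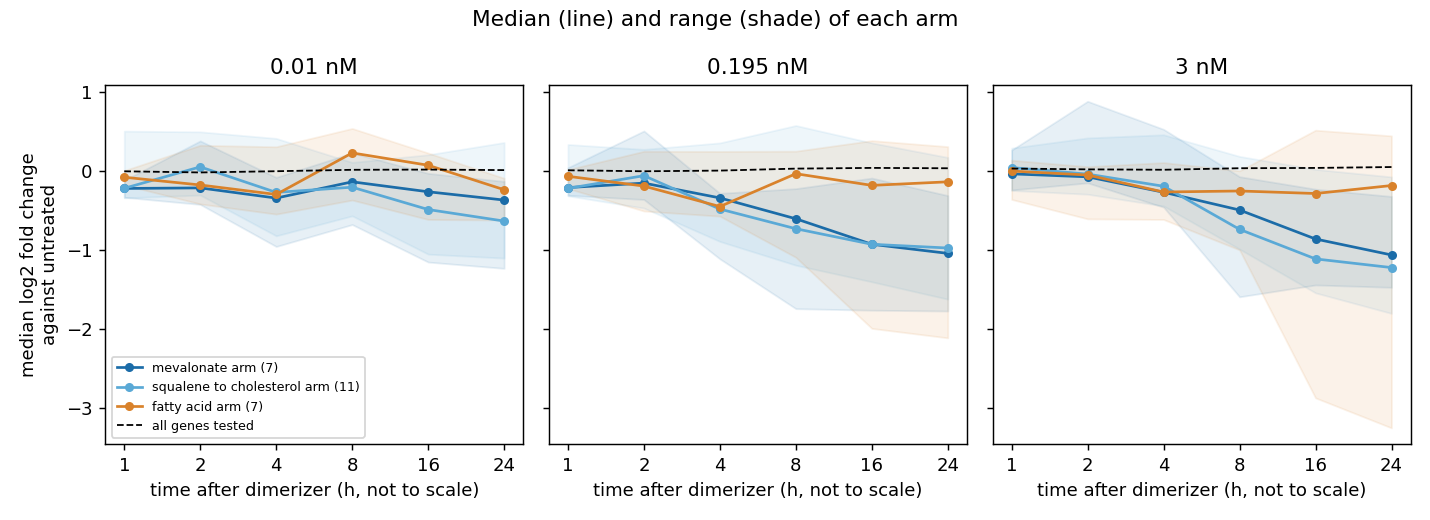
Lines show the median log2 fold change against untreated of the mevalonate arm (7 genes), the squalene to cholesterol arm (11) and the fatty acid arm (7) over time at each dose, shades their range from the lowest to the highest gene, and the dashed line the median of all tested genes. The 3 medians lie close together at 4 h, and the fatty acid median lies above both sterol medians from 8 h on at the upper doses. At 3 nM and 24 h it was -0.181, beside -1.06 and -1.22 for the sterol groups.

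Promoter sequence is shown for 5 members that were lower at 24 h at every dose, and for ELOVL6, which was called higher at the upper doses. RefSeq windows on GRCh38.p14, from 250 bases before to 50 after each start, existed for 27 of the 31 members. In all, 4 motifs were searched on both strands: TCACNCCAC, a core of the sterol regulatory element that SREBPs bind, CCAAT, the box bound by NF-Y, a known partner of SREBP, TGATGNAA, the element bound by ATF4 with C/EBP partners, and the E-box CACGTG. The last is its own reverse complement and was counted once a place. Sequences run 5′ to 3′ on the gene's strand and hold only bases before the RefSeq start and outside every GENCODE 29 exon, with CCAAT or its reverse complement in capitals. The ELOVL6 stretch lies within that gene's GENCODE body.
INSIG1, chr7:155297628-155297775, plus strand: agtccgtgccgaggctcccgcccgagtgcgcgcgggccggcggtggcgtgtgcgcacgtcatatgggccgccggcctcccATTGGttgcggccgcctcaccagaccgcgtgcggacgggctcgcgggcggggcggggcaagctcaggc
HMGCS1, chr5:43313513-43313662, minus strand: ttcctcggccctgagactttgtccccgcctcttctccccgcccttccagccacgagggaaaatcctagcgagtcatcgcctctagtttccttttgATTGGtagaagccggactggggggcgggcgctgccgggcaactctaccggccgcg
MSMO1, chr4:165327473-165327622, plus strand: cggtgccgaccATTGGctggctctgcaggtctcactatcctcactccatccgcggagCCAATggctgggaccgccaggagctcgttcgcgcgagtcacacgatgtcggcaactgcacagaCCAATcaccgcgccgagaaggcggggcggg
STARD4, chr5:111512591-111512740, minus strand: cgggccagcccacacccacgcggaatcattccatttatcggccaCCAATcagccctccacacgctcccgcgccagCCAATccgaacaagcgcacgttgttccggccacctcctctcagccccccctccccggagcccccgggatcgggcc
SCD, chr10:100346983-100347123, plus strand: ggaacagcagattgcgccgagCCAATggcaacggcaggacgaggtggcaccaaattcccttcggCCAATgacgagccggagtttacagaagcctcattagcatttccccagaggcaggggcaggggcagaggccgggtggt
ELOVL6, chr4:110198677-110198826, minus strand: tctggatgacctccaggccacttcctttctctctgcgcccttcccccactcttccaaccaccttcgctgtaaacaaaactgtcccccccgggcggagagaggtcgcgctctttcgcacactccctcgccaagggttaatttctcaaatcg

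CCAAT was found in the windows of 20 of these 27 members, or in 24 of their 37 windows (64.9%), against 34.6% of 35116 windows of all genes. It was present in 5 of 6 mevalonate genes, 8 of 9 squalene to cholesterol genes, 4 of 6 fatty acid genes and 3 of 6 control genes. ELOVL6, PMVK and SCAP had none. CYP51A1, FADS1, INSIG2 and SREBF1 also had none, and all were called lower at 24 h at every dose in the main fit. TM7SF2 had the box and was not called lower at any dose. The sequences shown above therefore do not stand for all members, and a link of motif with direction was not tested. TCACNCCAC was found in 1.13% of all windows and in 1 member, SREBF2. The 30 bases around that match begin 143 bases before the RefSeq start, with the match in capitals.
SREBF2, chr22:41832962-41832991, plus strand: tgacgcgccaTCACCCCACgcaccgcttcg
TGATGNAA was found in 3.62% of all windows and in no member, and CACGTG in 7.26% and in INSIG1, LSS, SC5D and SCAP. These are exact matches of letters in short windows and describe the sequence only. A sterol regulatory element with other letters was not counted.

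SREBF2, the gene of SREBP2 (chromosome 22, 41833079 to 41907308 on GRCh38), fell with dose after 24 h. Its level was 97.8, 102 and 108 TPM in the libraries of untreated set 1 and 115, 125 and 117 TPM in set 2. At 24 h it was 96.7, 98.7 and 106 TPM at 0.01 nM, 67, 58 and 63.4 TPM at 0.2 nM, and 46.1, 49.1 and 48.1 TPM at 3 nM. The 0.01 nM libraries overlap set 1 on this scale, and all libraries of the higher doses lie below every untreated library. The log2 fold changes were -0.33, -1.02 and -1.29 (SE 0.0316 at 3 nM, edgeR adjusted p = 4.4e-41). The fall was late: at 8 h SREBF2 stood at -0.29 and -0.35 at the higher doses, or 28.2% and 27.1% of the log2 change seen at 24 h.

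SREBF1, the gene of SREBP1 (chromosome 17, 17810399 to 17837002), changed less. Its level was 85.2, 103 and 111 TPM in set 1 and 123, 154 and 140 TPM in set 2, a wide spread. At 24 h it was 119, 116 and 112 TPM at 0.01 nM, 90.8, 78.1 and 105 TPM at 0.2 nM, and 73.9, 70.6 and 74.2 TPM at 3 nM. Only the 3 nM libraries lie below all untreated ones. The fold changes were -0.10, -0.47 and -0.63. The 0.01 nM value was -0.01 against set 1 and was not called there (SE 0.0441, edgeR adjusted p = 0.86). At 4 h SREBF1 stood at -0.67 at this dose. The values are for the gene as a whole, so its isoforms are not separated.

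INSIG1, the sterol-induced retention protein (chromosome 7, 155297776 to 155310235), had, with FADS2, the lowest fold change of the 31 genes at 3 nM and fell early. Its level was 22.2, 21.9 and 25.5 TPM in set 1 and 32.9, 34.2 and 34.6 TPM in set 2. At 4 h it was 10.3, 7.87 and 9.06 TPM at 0.01 nM, 7.36, 8.29 and 6.78 TPM at 0.2 nM, and 7.29, 10.5 and 9.83 TPM at 3 nM. All 9 libraries lie below all untreated libraries, and the doses overlap. At 24 h it was 14.5, 12.7 and 13.6 TPM at 0.01 nM, 7.94, 4.73 and 5.4 TPM at 0.2 nM, and 3.5, 3.07 and 2.77 TPM at 3 nM. By then the 3 doses no longer overlap. The fold changes were -1.72, -2.18 and -1.70 at 4 h and -1.44, -2.53 and -3.28 at 24 h (SE 0.0779 at 3 nM, edgeR adjusted p = 1.1e-41), and at 3 nM -3.45 against set 2 and -3.11 against set 1. FADS2 stood at -3.25 at 3 nM, and at -3.30 and -3.21 against these sets, so the order of the 2 genes depends on the set. From 2 to 4 h alone INSIG1 dropped by 1.43, 1.85 and 1.80. The last was 1.72 without the 4 h library that stood apart and 1.76 without the 2 h one.

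INSIG2, a second retention protein that is not a strong SREBP target in most cells, was called lower at every dose. Its level was 22.6, 17.1 and 19.4 TPM in set 1 and 21.8, 21.5 and 20.9 TPM in set 2. At 24 h it was 21.3, 20.7 and 18.2 TPM at 0.01 nM, 14.3, 14.8 and 12.8 TPM at 0.2 nM, and 13.7, 18.5 and 14.3 TPM at 3 nM. Only the 0.2 nM libraries lie below all untreated libraries. The fold changes were -0.30, -0.49 and -0.54, and at 3 nM INSIG2 already stood at -0.65 at 4 h. STARD4, a small carrier that moves cholesterol between membranes, was lower by 0.97, 2.00 and 2.31 at 24 h, and its 3 nM libraries at 9.36 to 10.5 TPM compare with 31.1 to 57.1 TPM untreated. SCAP, the escort of SREBP, was the exception among these 6 genes. It was called higher at 0.01 and 0.2 nM (0.15 and 0.28) and not at 3 nM (-0.02, SE 0.0373, edgeR adjusted p = 0.72). Set 2 was lower than set 1 for SCAP by 0.29, and against the set of like depth alone the value was not called at 0.01 nM (edgeR adjusted p = 0.97) and was called higher at 0.2 nM (0.13, adjusted p = 0.017) and at 3 nM (0.13, adjusted p = 0.0042).

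**Figure D3:**
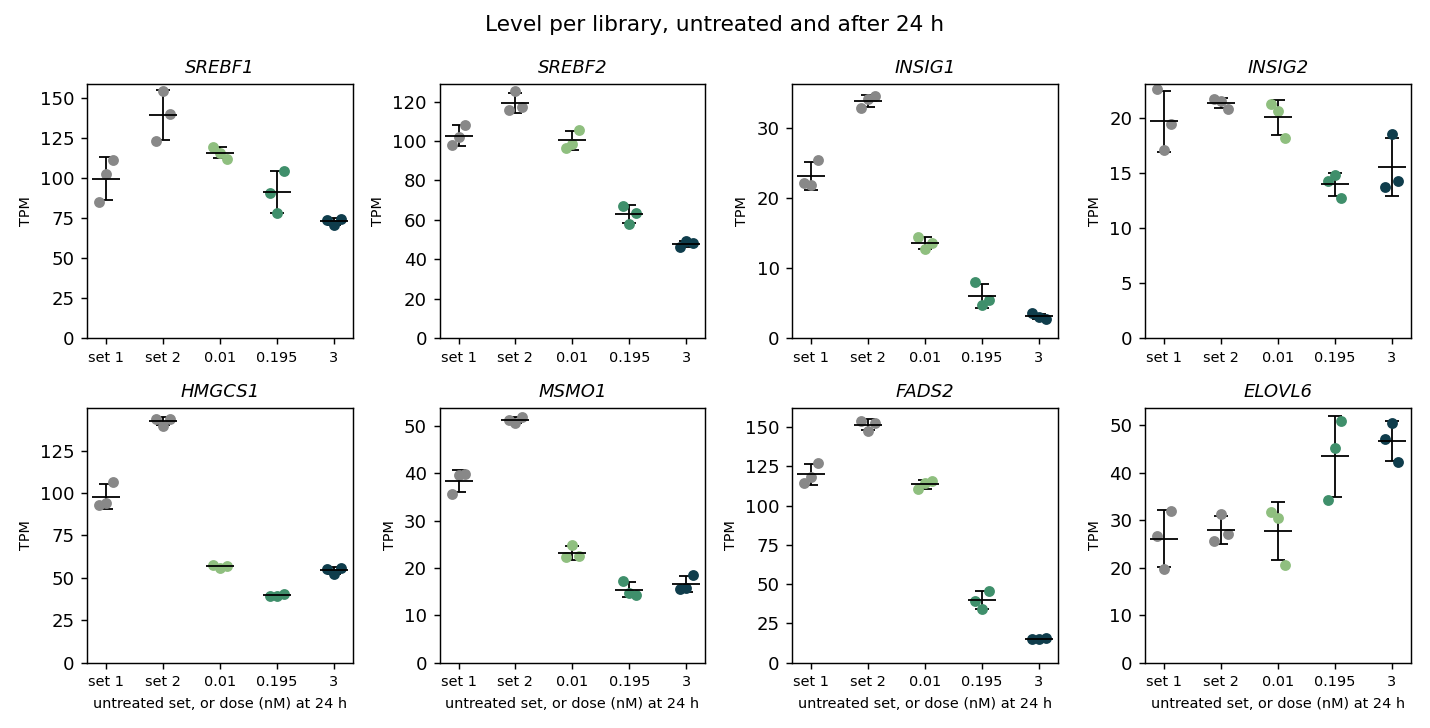
Points are single libraries in TPM, horizontal marks group means and bars the SD (n = 3), for 8 genes in both untreated sets and at 24 h of each dose. INSIG1 and FADS2 step down from dose to dose, HMGCS1 is lowest at 0.2 nM, and ELOVL6 is higher at 0.2 and 3 nM.

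In the mevalonate arm all 7 enzymes were called lower at 24 h at 0.2 and 3 nM, and 6 at 0.01 nM, of which MVK was not called against set 1 (-0.23, and -0.11 there). In mean TPM at 0.01 nM, ACAT2, MVK, MVD and FDPS stood at 102.4%, 109.4%, 101% and 106.1% of set 1. HMGCS1 and IDI1 stood at 58.09% and 66.09%. ACAT2, the cytosolic thiolase that joins acetyl-CoA units, was 33.6, 25 and 29.7 TPM in set 1, 39.1, 36.9 and 35.7 TPM in set 2, and at 24 h 26.2, 32.1 and 32.1 TPM at 0.01 nM, 18.1, 13 and 15.6 TPM at 0.2 nM, and 11.3, 12.6 and 11.2 TPM at 3 nM. The lowest dose overlaps the untreated libraries and the others lie below them. Its fold changes were -0.48, -1.23 and -1.47 (SE 0.0552 at 3 nM, edgeR adjusted p = 6.7e-32). The gene body of ACAT2 overlaps that of TCP1, on the other strand, by 558 bases. TCP1 had 6079 to 8278 counts in set 2 and 10011 to 10380 at 3 nM, where ACAT2 had 1095 to 1440 and 423 to 439.

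IDI1, which isomerizes the isoprene unit, was 18.1, 21.4 and 25.8 TPM in set 1, 31.1, 33.9 and 30.3 TPM in set 2, 13.6, 13.6 and 16 TPM at 0.01 nM, 10.5, 8.69 and 7.2 TPM at 0.2 nM and 9.28, 9.91 and 10.6 TPM at 3 nM after 24 h. The treated libraries all lie below the untreated ones, and those of the 2 higher doses overlap. Its fold changes were -1.0, -1.76 and -1.47, and at both higher doses the whole change was present by 8 h (-1.75 and -1.59).

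HMGCS1, which makes HMG-CoA and is a classical SREBP2 target (chromosome 5, 43289395 to 43313512), fell most at the middle dose in the edgeR fit. It was 92.8, 94.1 and 106 TPM in set 1 and 144, 139 and 144 TPM in set 2. At 24 h it was 57.5, 55.9 and 56.9 TPM at 0.01 nM, 39.2, 39.3 and 40.5 TPM at 0.2 nM, and 55.3, 52.1 and 55.6 TPM at 3 nM. The 0.2 nM libraries are the lowest and do not overlap the others. The fold changes were -1.23, -1.77 and -1.20, and against the sets of like depth -1.06, -1.60 and -1.37. In TPM the HMGCS1 mean was 40.62% of that of set 1 at 0.2 nM and 38.19% of that of set 2 at 3 nM. These 2 doses differ in depth, so their order depends on the scale and control. MVD, the decarboxylase, was lower by 1.04 at 0.2 nM and 1.06 at 3 nM, and FDPS, farnesyl diphosphate synthase, by 0.69 and 0.65. The kinases MVK (-0.48 and -0.32) and PMVK (-0.31 and -0.46) changed least in this arm.

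In the squalene to cholesterol arm 10 of 11 enzymes were called lower at 24 h at each dose. HSD17B7, a reductase of the sterol ring, was 16.9, 16.4 and 21.2 TPM in set 1, 29.2, 28.3 and 28.1 TPM in set 2, and at 24 h 17.5, 13 and 17.5 TPM at 0.01 nM, 11.8, 8.95 and 11 TPM at 0.2 nM, and 7.01, 6.09 and 7.08 TPM at 3 nM. The lowest dose overlaps set 1. Its fold changes were -0.60, -1.31 and -1.80 (SE 0.0879 at 3 nM, edgeR adjusted p = 1.9e-26). A near-identical copy, HSD17B7P2 on chromosome 10, could share its reads. The copy had 72 to 100 counts in set 2 and 19 to 35 at 3 nM, beside 485 to 618 and 116 to 149 for HSD17B7, so the split between them is uncertain. MSMO1, the methyl sterol oxidase, was 35.6, 39.6 and 39.8 TPM in set 1, 51.2, 50.6 and 51.8 TPM in set 2, and 22.3, 24.9 and 22.4 TPM, 17.1, 14.7 and 14.4 TPM, and 15.6, 15.8 and 18.6 TPM at the 3 doses in order. Its fold changes were -1.10, -1.62 and -1.48 (SE 0.0528 at 3 nM, edgeR adjusted p = 5.1e-33), and already the lowest dose separated from all untreated libraries.

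Of the remaining enzymes of this arm, some fell further with each dose against the mean of both sets and others did not. DHCR7, which makes cholesterol in the last step of 1 branch, was lower by 0.63, 1.26 and 1.43, and LSS, lanosterol synthase, by 0.28, 0.93 and 1.42. EBP, the sterol isomerase, was lower by 0.26, 0.87 and 1.38. In mean TPM at 0.01 nM, LSS was 97.02% of untreated and 108% of set 1, and EBP 91.34% and 92.64%. The libraries of both genes overlap the untreated ones at this dose. FDFT1, squalene synthase, was lower by 0.73, 1.26 and 1.22. SC5D, the sterol desaturase, was lower by 0.88, 1.18 and 1.06. Neither showed a further fall at 3 nM on this control. SQLE, squalene epoxidase and a known control point, was lower by 0.78, 0.97 and 0.67, NSDHL, a decarboxylating dehydrogenase, by 0.34, 0.66 and 0.42, and CYP51A1, lanosterol demethylase, by 0.78, 0.83 and 0.36. Against the sets of like depth CYP51A1 was lower by 0.64, 0.68 and 0.50. In mean TPM at 24 h, SC5D was 56.03% of the set of like depth at 0.2 nM and 37.02% at 3 nM. The same shares were 47.89% and 40.25% for FDFT1, 61.58% and 52.33% for SQLE, and 76.87% and 76.31% for NSDHL. The order of these doses thus depends on the control for some of these genes. TM7SF2, a sterol reductase and the member with the lowest untreated level (8.48 to 13.8 TPM), was not called lower at any dose. It stood at 0.36 (SE 0.127), 0.18 (SE 0.128) and -0.07 (SE 0.11) at 24 h, of which edgeR called the first (adjusted p = 0.017), and none of the 3 was called against the set of like depth.

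Within the fatty acid arm the 3 desaturases were called lower at every dose, while ACLY, ACACA and FASN stood between -0.23 and -0.01. FADS2, the delta-6 desaturase that starts polyunsaturated fatty acid synthesis (chromosome 11, 61792980 to 61867354), was 114, 118 and 127 TPM in set 1 and 154, 147 and 153 TPM in set 2. At 24 h it was 110, 114 and 116 TPM at 0.01 nM, 39.1, 34.2 and 45.8 TPM at 0.2 nM, and 15.1, 14.7 and 15.8 TPM at 3 nM. The lowest dose overlaps set 1, and the others step down without overlap, to 10.04% of the mean of set 2 at 3 nM. The fold changes were -0.48, -2.11 and -3.25 (SE 0.0414 at 3 nM, edgeR adjusted p = 7.5e-55). At 3 nM FADS2 stood at -1.0 at 8 h and -2.87 at 16 h.

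SCD, the stearoyl-CoA desaturase that makes monounsaturated fatty acids (chromosome 10, 100347124 to 100364834), was 81.9, 88.4 and 99.6 TPM in set 1, 124, 130 and 132 TPM in set 2, and 50.1, 50.7 and 50 TPM at 3 nM and 24 h. It was 76.1, 78.7 and 79.2 TPM at 0.01 nM and 60.3, 60.9 and 59.1 TPM at 0.2 nM, so every treated library lies below every untreated one. Its fold changes were -0.62, -0.99 and -1.14. FADS1, the other front-end desaturase, was lower by 0.41, 0.82 and 0.91. The bodies of FADS1 and FADS2 overlap by 29694 bases on opposite strands. The libraries were stranded per the labels, but whether counting used the strand is not given in the sources used here, so reads of this stretch may be shared.

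ACLY, which supplies cytosolic acetyl-CoA, ACACA, which makes malonyl-CoA, and FASN, which assembles palmitate, lay between -0.23 and -0.01 at 24 h at all doses. FASN is the second most abundant of the 31 genes in untreated cells, at 94.6 to 218 TPM, and ran from 121 to 145 TPM over the 9 treated libraries at 24 h. Its fold changes of -0.15, -0.11 and -0.11 were called but became -0.02 and 0.02, not called, at the 2 lower doses against set 1, and -0.24 at 3 nM against set 2. Against set 1 ACLY at 0.01 nM (-0.11, and -0.08 there) and ACACA at 0.2 nM (-0.13, and -0.08 there) were not called either, and on the TPM scale ACLY and ACACA turned to 0.02 and 0.23 at 0.2 nM. No direction is therefore given for these 3 enzymes. ELOVL6, which lengthens palmitate (chromosome 4, 110045846 to 110199199), was called higher at the 2 upper doses. It was 26.7, 19.8 and 31.8 TPM in set 1, 25.5, 31.2 and 27.1 TPM in set 2, 31.8, 30.5 and 20.7 TPM at 0.01 nM, 34.2, 45.2 and 51 TPM at 0.2 nM and 47.1, 50.6 and 42.2 TPM at 3 nM. Both higher doses lie above all untreated libraries. Its fold changes at 24 h were -0.09, 0.31 and 0.45 (SE 0.053 at 3 nM, edgeR adjusted p = 4.2e-11), after values of -0.41, -0.50 and -0.60 at 2 h.

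From 1 to 2 h some members rose and others fell, with no general shift: the median member moved by -0.0159, -0.0023 and -0.00649 at the 3 doses. In this step 9 members rose at 0.01 nM (15.5% of all tested genes were called higher), 9 at 0.2 nM (17%) and 5 at 3 nM (19.3%), a share of members of 29%, 29% and 16.1%. Falls were called for 4, 3 and 5 members (12.7%, 12.7% and 12% of all tested genes), ELOVL6, FADS1 and FADS2 at every dose, SCD at 0.01 and 3 nM and SCAP at 3 nM. In mean TPM, ELOVL6 at 2 h was 128.7%, 84.2% and 99.04% of its 1 h level at the 3 doses, so its fall depends on the scale. FASN, called higher at 0.01 and 0.2 nM, was 121.2% and 83.17% of its 1 h level there. SC5D, called higher at 3 nM, was 99.02%. Without the library that stood apart at 3 nM and 2 h, 5 rose and 4 fell at that dose, SCAP no longer being called. The shares of members that fell were 12.9%, 9.68% and 16.1%. These shares, and that of members rising at 3 nM, lay near those of all tested genes. Nothing is read from those counts. CYP51A1, HMGCS1, SQLE and STARD4 rose at all 3 doses. HMGCS1 went from 136, 112 and 112 TPM at 1 h to 156, 160 and 141 TPM at 2 h at 0.01 nM, and from 174, 171 and 164 TPM to 215, 212 and 208 TPM at 3 nM. At each of these doses the 2 times do not overlap, and the steps were 0.62 at both and 0.73 at 0.2 nM. STARD4 rose by 0.53, 0.36 and 0.26, CYP51A1 by 0.41, 0.50 and 0.23, and SQLE by 0.28, 0.33 and 0.22. In mean TPM these 4 genes also stood above their 1 h level at each dose, with SQLE at 3 nM the lowest, at 102.5%. INSIG1 did not share this rise (-0.03, -0.17 and -0.10, none called). In the TPM test 5, 4 and 1 members passed as higher in this step and 2, 1 and 2 as lower. With any 1 replicate number left out, 2 to 3 fell at 0.01 nM and 2 to 5 at 3 nM.

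**Figure D4:**
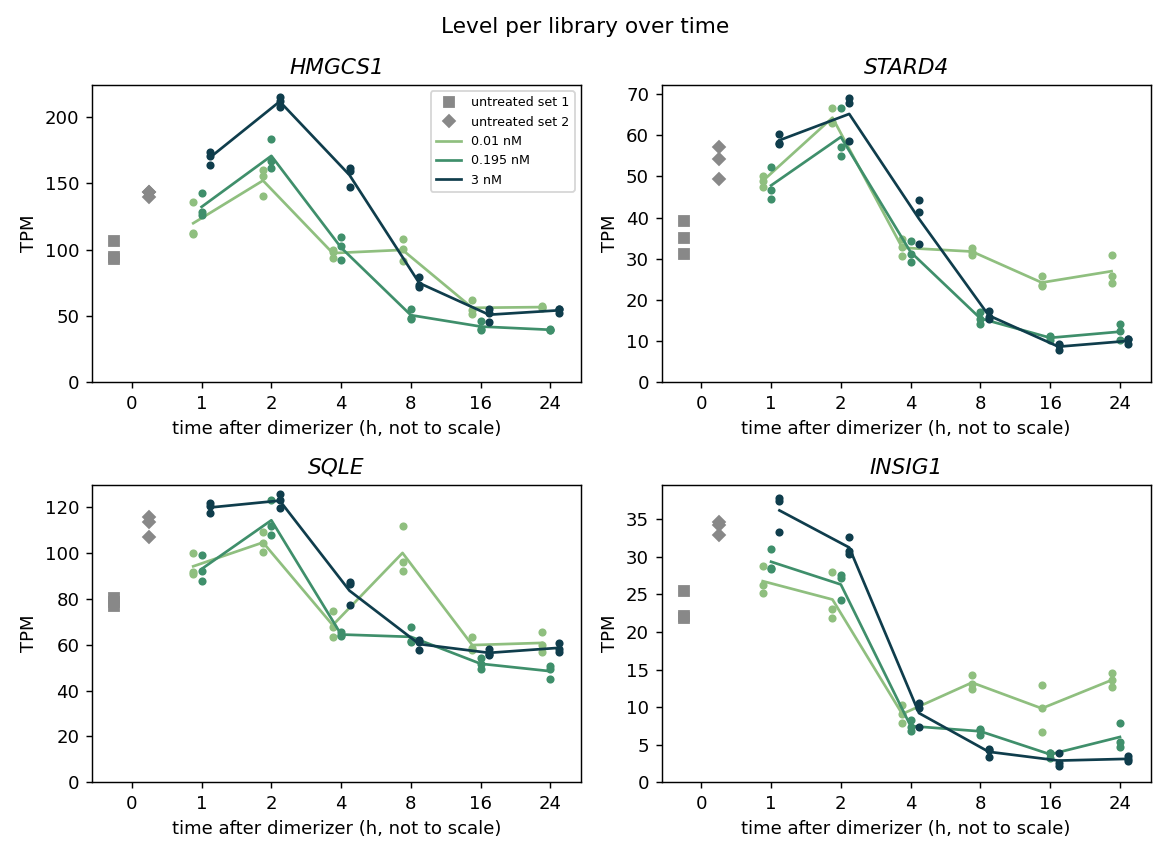
Points are single libraries in TPM and lines group means over time at each dose, for 4 genes, with both untreated sets at 0 h and the time axis not to scale. HMGCS1 and STARD4 peak at 2 h at every dose and then fall, INSIG1 drops between 2 and 4 h, and SQLE at 0.01 nM stands higher again at 8 h.

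From 2 to 4 h 17, 19 and 21 members fell at the 3 doses, where 15.4%, 16.8% and 24.8% of all tested genes did. At 3 nM the count was 22 without the 4 h library that stood apart and 17 without the 2 h one. STARD4 dropped by 1.03, 0.94 and 0.61 in this step and HMGCS1 by 0.73, 0.81 and 0.36. At 4 h 22, 24 and 21 members were lower than untreated (26.1%, 29.2% and 31.9% of all tested genes), with medians over the 31 of -0.30, -0.447 and -0.19. At 3 nM 24 were lower, with a median of -0.222, without the library that stood apart. HMGCS1 at 3 nM (0.53, and 0.36 against set 2) and CYP51A1 at 0.2 and 3 nM (0.20 and 0.46, and 0.34 and 0.32 against the sets of like depth) were still above untreated at that time. On the TPM scale limma called 14 members lower at 0.01 nM and 4 h.

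The doses then took separate paths. At 0.01 nM 14 members rose again from 4 to 8 h (14.7% of all tested genes did), among them MVK by 0.69, SQLE by 0.58, INSIG1 by 0.46, SCD by 0.37 and SREBF1 by 0.34. SQLE was 74.8, 63.4 and 67.6 TPM at 4 h and 112, 92.4 and 96.2 TPM at 8 h at this dose, without overlap. That count was 7 without replicate 2 of every group, and 9 in the TPM test. At 0.2 nM 15 members fell over the same hours (15.8%) and at 3 nM 23 did (20.8%), with and without the 4 h library that stood apart. At 4 h 8 members were lower at 0.2 than at 0.01 nM (10.3%), and 3 to 5 with any 1 replicate number left out. At 8 h 26 were (17.8%), with a median difference over the 31 of -0.444 beside 0.00249 for all tested genes, and at 24 h 22 (24.6%). Libraries of the 0.01 and 0.2 nM doses share a range of depth.

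Members differed in how much of the 24 h change was in place early. Over the 21 members called at 24 h with a log2 change of at least 0.5 at 3 nM, the median share of that change was 22.8% at 4 h, 59% at 8 h and 92% at 16 h. SREBF2 (27.1%), FADS2 (30.6%), DHCR7 (31.5%) and ACAT2 (37.3%) had the lowest shares at 8 h. INSIG1 (91.5%), SREBF1 (93.3%), IDI1 (108%), SQLE (111%) and INSIG2 (118%) had the highest. For IDI1, SQLE and INSIG2 neither the step from 8 to 16 h nor that from 16 to 24 h was called at 3 nM, so a share over 100% was not a detected return. At 0.2 nM SREBF2 was again the lowest at 8 h, at 28.2%, and IDI1 the highest, at 98.9%.

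From 0.2 to 3 nM the members no longer moved together. At 24 h 12 were lower at 3 nM (25.5% of all tested genes were) and 6 higher (30.6%). FADS2 was lower by 1.14, INSIG1 by 0.75, EBP by 0.51, and LSS and HSD17B7 by 0.49 each. HMGCS1 was higher by 0.57, CYP51A1 by 0.47, SQLE by 0.31, IDI1 by 0.29 and NSDHL by 0.24, with ACLY at 0.11. This comparison is between depths, and at 1 h 14 members were already higher at 3 than at 0.2 nM (15.9%), among them HMGCS1 by 0.49, IDI1 by 0.42, CYP51A1 by 0.41 and SQLE by 0.31. Untreated set 2 exceeded set 1 by 0.34, 0.31, 0.29 and 0.25 in the same 4 genes. Of the genes lower at 3 nM, set 2 stood above set 1 by 0.35 for INSIG1, 0.33 for HSD17B7, 0.09 for FADS2 and 0.01 for LSS, and at -0.11 for EBP.

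**Figure D5:**
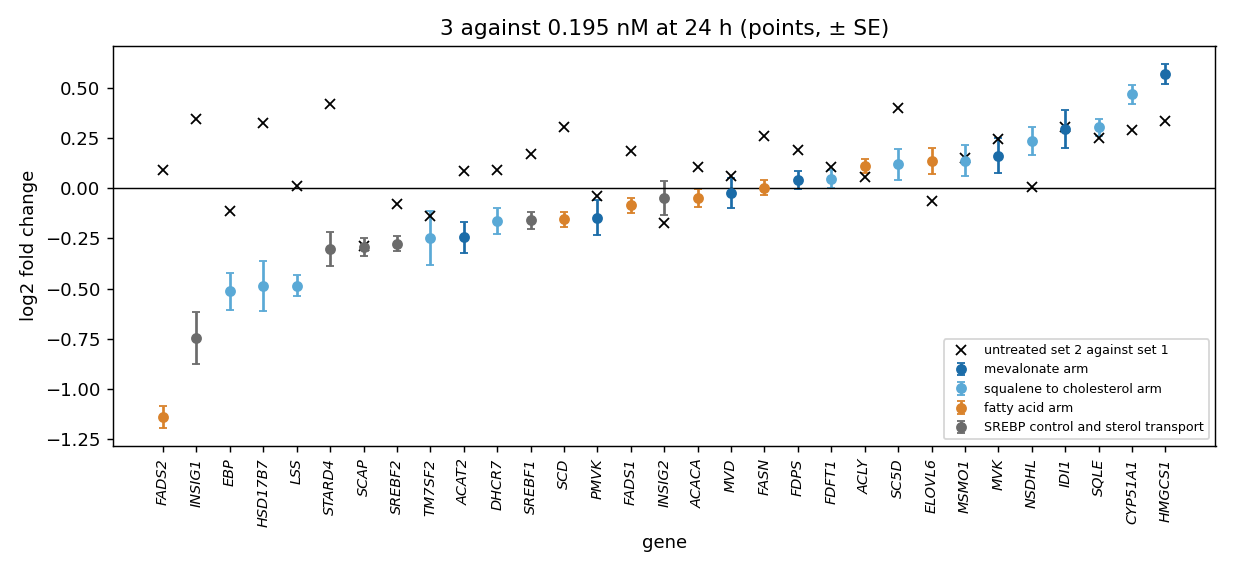
Points show the log2 difference of 3 from 0.2 nM at 24 h for each of the 31 genes with its SE, coloured by arm, and crosses the difference of untreated set 2 from set 1. At the right, where 3 nM is higher, the crosses of IDI1 and SQLE lie near their points, and at the left, where FADS2 and INSIG1 are lower by 1.14 and 0.75, the crosses lie above 0.

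The change from 4 to 24 h compares libraries of 1 depth within each dose. It was more negative at 3 than at 0.2 nM for 17 members (16.7% of all tested genes were called lower on this contrast) and less so for 4 (19.5% were called higher). Without the library that stood apart at 3 nM and 4 h these counts were 16 and 4 (and the second was 2 to 3 with any 1 replicate number left out), and 20 of the 21 calls were the same, DHCR7 being lost (-0.21, edgeR adjusted p = 0.055). INSIG1 dropped by 1.58 from 4 to 24 h at 3 nM and by 0.36 at 0.2 nM, a difference of -1.23 (SE 0.168, edgeR adjusted p = 2.1e-08), and of -1.32 without that library. FADS2 dropped by 2.82 and 1.61, HSD17B7 by 1.61 and 0.63, and STARD4 by 2.23 and 1.36. HMGCS1, although higher at 3 nM at 24 h, dropped by 1.73 and 1.47 over these hours, a difference of -0.26. CYP51A1 dropped by 0.82 and 1.02. In the TPM test 8 members passed for this contrast.

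Lists of genes around the 31 were read at 3 nM and 24 h, where the median tested gene stood at 0.0533, 41.1% of tested genes were called higher and 36% lower, and nothing is read from a list's count near those shares. Of 13 partners in SREBP processing and degradation 7 rose and 5 fell (median 0.105), with PAQR3, a Golgi tether of SCAP, higher by 0.96, SAR1B, of the COPII coat that carries SCAP, by 0.70, and ERLIN1, an endoplasmic reticulum scaffold protein, by 0.69. Of 10 redox partners and accessory proteins 3 rose and 5 fell (median -0.0946). C14orf1 (ERG28), thought to tether sterol demethylation enzymes, was lower by 1.64, CYB5A, an electron donor to sterol and fatty acid desaturation, by 1.58, and POR, the reductase of CYP51A1 and SQLE, by 0.86. Of 12 genes of the non-sterol isoprenoid branches 7 rose and 4 fell (median 0.455), with PDSS1 of ubiquinone synthesis higher by 1.30 and ZMPSTE24, a protease for prenylated proteins, by 0.71. FDPS, at their branch point, was at -0.65.

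Of 15 tested genes of sterol export, storage and transport 6 rose and 6 fell (median 0.0322). ABCA1, the cholesterol exporter, was scarce at 0.709, 0.726 and 0.945 TPM in set 1 and 0.714, 0.96 and 0.914 TPM in set 2, and was 0.0546, 0.0342 and 0.0962 TPM at 3 nM (-4.16, SE 0.235). NPC2, which hands cholesterol out of lysosomes, was 427 to 516 TPM in untreated libraries and 94 to 100.2 TPM at 3 nM (-2.34), and LIPA, the lysosomal lipase, was lower by 1.34. Of 22 tested genes of other fatty acid and glycerolipid synthesis 10 rose and 11 fell (median -0.0558). ACACB, the mitochondrial acetyl-CoA carboxylase, was lower by 1.93 and SCD5, a second stearoyl desaturase, by 1.79, while DGAT2, which makes triglyceride, was higher by 1.78. Of 15 tested genes of fatty acid oxidation 5 rose and 6 fell (median -0.00857), with ECI2 lower by 1.18, ACADS, the short-chain dehydrogenase, lower by 1.11 and ECI1, like ECI2 an enoyl-CoA isomerase, higher by 0.73. CH25H, MLXIPL and CPT1A, 1 in each of the last 3 lists, did not pass the filter on low counts.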

How the data were processed

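Total RNA of 60 libraries, 3 for each of 20 groups, was sequenced. The deposited estimated counts and TPM per gene were used as the authors gave them. Salmon 0.9.1, FastQC 0.11.5 and GRCh38 are named per the submitters' processing notes, and the labels' protocols give a directional library kit. Of the deposited estimated counts above 0, 54.2% were whole within 1e-06, and all were rounded. Genes were kept by filterByExpr (18040 of 57665) and scaled by TMM, and 1 edgeR 4.0.16 quasi-likelihood fit in R 4.3.3 gave all contrasts, with Benjamini-Hochberg adjustment over all genes and calls at 0.05. The fit was tested on simulated data. Alternatives were DESeq2 1.42.0 with its size factors, other scaling, no filter, limma 3.58.1 on log2(TPM + 1) or log2(TPM + 0.1) of the deposited TPM, each untreated set alone, a replicate block and libraries left out, 2 of them (replicate 1 at 3 nM and 4 h, replicate 3 at 3 nM and 2 h) chosen after the data were seen. Medians, counts and motifs have no test.

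Members and lists were chosen with earlier results of these data known. Every member was named, with each library's 24 h and untreated values for SREBF1, SREBF2, INSIG1, INSIG2, the 2 members of each arm with the largest change at 3 nM and 24 h, and any member called against its arm's median. Of each other list, up to 3 called genes with the largest change were named. HMGCS1, STARD4 and SQLE values over time were chosen after they were seen. Positions are from GENCODE 29 (57068 genes matched by identifier).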

Additional observations from a re-analysis of the deposited data

Results flagged for a closer look

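The change from 4 to 24 h was compared between 3 and 0.2 nM within the edgeR fit, and 17 of the 31 members differed downward (16.7% of all tested genes) and 4 upward (19.5%) at an adjusted p under 0.05. Of these calls 20 held without replicate 1 at 3 nM and 4 h, which stood apart from its group, and DHCR7 did not (adjusted p = 0.055). Values are the log2 change at 3 nM minus that at 0.2 nM, so a negative value is a larger fall, or a smaller rise, at the higher dose. Among the control genes they were -1.23 for INSIG1, -0.862 for STARD4, -0.412 for SREBF1 and -0.233 for SREBF2. In the mevalonate arm they were -0.402 for ACAT2, -0.362 for IDI1 and -0.262 for HMGCS1. In the squalene to cholesterol arm they were -0.977 for HSD17B7, -0.64 for EBP, -0.619 for SC5D, -0.518 for LSS, -0.238 for DHCR7, -0.22 for FDFT1 and -0.152 for SQLE, with 0.203 for CYP51A1. In the fatty acid arm they were -1.21 for FADS2, -0.346 for SCD and -0.342 for FADS1, with 0.144 for FASN, 0.246 for ACLY and 0.299 for ELOVL6. The 2 doses were sequenced to different depths, and the part of depth in these values was not tested.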

How the results depend on the processing

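Members called were recounted under each alternative. The share of all tested genes under each alternative is not given, so these counts are not read as results about the members. On the TPM scale, limma with a pseudocount of 1, of 0.1, or of 1 with no filter called 14, 14 and 14 lower at 0.01 nM and 4 h, 17, 17 and 16 at 0.01 nM and 24 h, and 13 at 3 nM and 4 h with no filter. From 1 to 2 h it called 5, 5 and 5 higher at 0.01 nM, 4, 4 and 4 at 0.2 nM, and 1, 1 and 1 at 3 nM, and 2, 2 and 1 lower at 0.01 nM, 1, 1 and 0 at 0.2 nM, and 2, 2 and 2 at 3 nM. From 4 to 8 h at 0.01 nM it called 9, 9 and 9 higher. Between 0.2 and 0.01 nM at 4 h it called 2, 2 and 1 lower, between 3 and 0.2 nM 8, 8 and 6 higher at 1 h and 3, 3 and 3 at 24 h, and for the difference between doses in the change from 4 to 24 h 8, 8 and 7 lower and 2, 2 and 2 higher. With no filter on low counts, edgeR called 2 lower from 1 to 2 h and 9 higher from 4 to 8 h at 0.01 nM, and 5 lower between 0.2 and 0.01 nM at 4 h, and 11 higher between 3 and 0.2 nM at 24 h. Leaving out 1 replicate number gave 7 to 11 for that rise from 4 to 8 h and 3 to 5 for that difference at 4 h, 2 to 3 members lower from 1 to 2 h at 0.01 nM and 2 to 5 at 3 nM, and 2 to 3 higher for the difference between doses in the change from 4 to 24 h. Against untreated set 2 alone 2 members were higher at 3 nM and 24 h. The cause of these differences was not tested.

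The sterol arm's median at 24 h was -0.436 against set 1 and -0.372, -0.386 and -0.372 on the 3 TPM settings at 0.01 nM, -1.08 against set 2 at 0.2 nM, and -1.03 against set 1, -1.26 against set 2, -1.05 with no filter and -1.20 with control genes at 3 nM. The fatty acid arm's was -0.245 against set 2, -0.250, -0.251 and -0.250 in TPM and -0.304 with SREBF1 at 0.2 nM, and -0.326, -0.328 and -0.326 in TPM and -0.408 with SREBF1 at 3 nM. Signs turned for ACLY in TPM (0.0689, 0.0696 and 0.0689 at 0.01 nM, and 0.018, 0.018 and 0.018 at 0.2 nM), for ACACA in TPM (0.229, 0.236 and 0.229 at 0.2 nM, and 0.0307, 0.0319 and 0.0307 at 3 nM), for FASN against set 1 (0.016 at 0.2 nM and 0.019 at 3 nM) and for SCAP against set 2 (0.129 at 3 nM).

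Deviations of same-numbered libraries correlated at a median of 0.00997, and 12.8% of 570 pairs passed 0.1. For libraries of different number the median was -0.00457, and 6.49% of 1140 pairs passed 0.1. Whether replicate numbers pair some of the samples was not settled. With the replicate block 16 members were lower from 4 to 8 h at 0.2 nM, against 15 without it, and no other count of members changed.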
